A study of Mus musculus with 4 samples.

Results

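Transcript levels of 10 genes for transcription factors and chromatin regulators of blood stem cell self-renewal were followed in mouse LSK cells with high and with low c-Myc-eGFP. LSK cells (lineage-negative, Sca1-positive, c-Kit-positive) hold the blood stem cells and multipotent progenitors of bone marrow. The genes were Mecom, Prdm16, Hlf, Mllt3, Erg, Fli1, Etv6, Eya1, Eya2 and Hmga2. Every probe set that the platform annotation gives to one of them alone was taken, which made 26 of the 45037 probe sets on the array, and 0 further probe sets named a member beside another gene. The cells came from freshly dissected femurs of mice labelled WT B6/129, with no age, sex or treatment given in the labels. Sorting on c-Myc-eGFP, a fusion of c-Myc with a green fluorescent protein, gave a Hi group and a Lo group with 2 arrays each. All 4 arrays share the strain, the LSK gate and the fusion. The labels do not say how many mice stood behind an array or whether the replicates came from different mice, so a p-value here measures only the spread between these arrays.

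Stem cells renew themselves under a small set of DNA-binding and chromatin proteins that keep stem cell genes active and lineage genes in check. Mecom and Prdm16 are zinc finger proteins with a PR domain, and stem cells that lack either are lost or fail after transplantation. Hlf is a PAR bZIP factor whose transcript marks stem cells, and Mllt3 (also called Af9) reads acylated histones and brings in the histone methyltransferase Dot1l and elongation factors. Erg, Fli1 and Etv6 carry an ETS domain. Eya1 and Eya2 are phosphatases that act as coactivators of sine oculis homeobox proteins, and Hmga2 is an AT-hook protein of chromatin known from fetal stem cells.

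In the Hi cells, 8 of the 10 genes lay below the Lo cells on both arrays when each gene was read by its brightest probe set, and the exceptions were Fli1 and Hmga2. The median difference of Hi minus Lo over the 10 genes was -0.84 on the log2 scale, against 0.03 over all 18161 genes. The groups did not overlap, with Hi lower, in 25.4% of all genes, and with Hi higher in 30.0%, against 0 of the 10 members. An unadjusted p under 0.05 by limma with Hi lower was found for 6 members (Mecom, Prdm16, Hlf, Erg, Eya1 and Eya2) and for 11.0% of all genes, and with Hi higher for 0 members and 9.26% of all genes. None of the 26 probe sets passed an adjusted p of 0.05 by limma over all probe sets. The smallest adjusted p of any probe set on the array was 0.0839, so 0.0% were called higher and 0.0% lower. The genes were proposed with earlier results of these data known, so these counts describe the genes and do not test them.

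**Figure D1:**
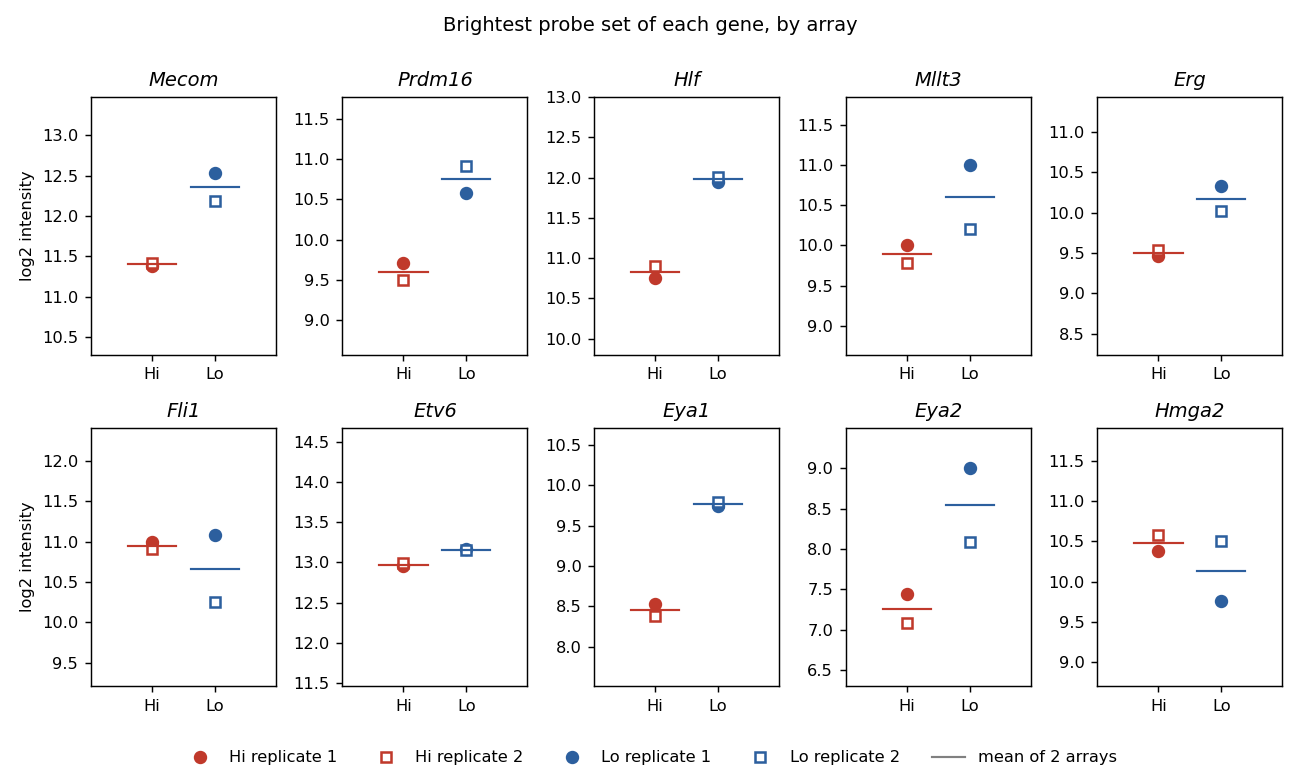
Log2 intensity of the brightest probe set of each gene on the 4 arrays; circles are replicate 1, squares replicate 2 and lines the mean of 2 arrays. Each panel has its own vertical axis of the same length, since intensities of different probe sets cannot be compared. Both Hi arrays lie below both Lo arrays in 8 panels, and the groups overlap for Fli1 and Hmga2.

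Of the 26 probe sets, 15 had both Hi arrays below both Lo arrays and 3 had both above, against 22.0% and 29.3% of all probe sets. An unadjusted p under 0.05 by limma was found for 11 with Hi lower and for 1 with Hi higher, against 8.91% and 9.05% of all probe sets. Probe sets of 1 gene read the same RNA and are not independent. Dim probe sets give no level, and 3 of the 26 did not reach the dim limit on any array. For each array that limit was the highest signal among 27 Bacillus subtilis control probe sets, between 4.74 and 4.87 on the log2 scale. The dim probe sets belong to Mecom (2) and Hmga2 (1). Of the 23 others, 14 had Hi lower without overlap (60.9%) and 2 had Hi higher (8.7%), against 28.2% and 31.1% of the 24445 probe sets of the array that were above the limit on all 4 arrays.

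Of 8 measured markers of LSK cells and their subsets, 4 had Hi lower and 2 had Hi higher without overlap, against 25.4% and 30.0% of all genes. Kit, the gate's own marker, had log2 intensities of 11.39 and 11.58 in Hi and 11.95 and 11.55 in Lo, and Sca1 (Ly6a) had no probe set given to it alone. The stem cell markers Procr, Tek and Slamf1 had differences of -1.999 ± 0.17 (SE), -1.73 ± 0.14 and -1.68 ± 0.52, and Ptprc, the pan-leukocyte gene for CD45, had -0.58 ± 0.15. The mean of the 3 Slamf1 probe sets gave -1.09. Cd48, a marker of more committed multipotent cells, had 0.74 ± 0.19, and the progenitor markers Cd34 and Flt3 had 0.11 ± 0.13 and -0.15 ± 0.18. Myc had 12.41 and 12.41 in Hi against 11.70 and 10.64 in Lo. Of 8 measured erythroid markers, 6 had Hi above Lo without overlap, and their summed intensity was 16376 to 18633 in Hi against 3383 to 3905 in Lo; Alas2 was dim on all arrays. The smallest p-values belonged to Rhag, Epor and Tfrc, at differences of 3.10, 1.92 and 2.10. Granulocyte and monocyte markers summed to 62820 to 72804 in Hi against 33798 to 42415 in Lo, with Hi above Lo without overlap in 7 of 12 and Ms4a3, Elane and Ctsg at 2.46, 2.23 and 2.29. In the same list S100a8, S100a9, Csf3r, Itgam and Adgre1 overlapped between the groups, at -0.08, -0.16, 0.12, 0.26 and 0.56. T and NK markers had Hi below Lo without overlap in 4 of 8 and above in 1 (Cd4, 0.35), with Cd7, Cd8a and Cd3d at -3.03, -1.19 and -0.77. Cd8a had -0.59 by the mean of its 5 probe sets, and Cd3e and Cd3g overlapped, at -0.10 and -0.15. The sum was 1182 to 1396 in Hi against 2452 to 2571 in Lo. Most of that gap came from Cd7, with log2 intensities of 7.10 and 7.27 in Hi and 10.21 and 10.22 in Lo. B lymphoid markers had 2 of 7 lower and 3 higher, with Igll1, Ms4a1 and Cd79b at 2.25, -0.79 and -0.34. The mean of the 2 Igll1 probe sets gave 1.34. Proliferation markers had Hi above Lo without overlap in 12 of 14, with Mybl2, E2f1 and Cdk1 at differences of 2.13, 1.94 and 1.498. Early response genes, which cell dissociation can also raise, had Hi below Lo without overlap in 11 of 14 and above in 1, with the smallest p for Egr1, Jun and Ier3 at -1.65, -1.55 and -1.15. For the Gapdh control, the 3′ signal exceeded the 5′ signal by 0.63 and 0.66 log2 in Hi, and by 0.74 and 0.78 in Lo. For the Actb control the groups overlapped, with 0.60 and 0.55 for Hi, and with 0.84 and 0.57 for Lo, so that Lo replicate 1 stood highest. In a sorted mixture, fewer stem cells and less of a transcript per cell cannot be told apart, and the part of these shifts in the differences below was not tested.

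Mecom and Prdm16 are the only PR domain factors among the 10 genes and are close relatives. Mecom lies on chromosome 3 at 29951296 to 30509759 and Prdm16 on chromosome 4 at 154316122 to 154637360, both in GRCm38.p6. Their sequences at a RefSeq transcript start are shown because they carry a stretch in common. The windows run from 250 bases before to 50 bases after the start, for Mecom on chr3:30509710-30510009 and for Prdm16 on chr4:154636824-154637123, both on the minus strand. The capitals mark the longest run the windows share.
Mecom: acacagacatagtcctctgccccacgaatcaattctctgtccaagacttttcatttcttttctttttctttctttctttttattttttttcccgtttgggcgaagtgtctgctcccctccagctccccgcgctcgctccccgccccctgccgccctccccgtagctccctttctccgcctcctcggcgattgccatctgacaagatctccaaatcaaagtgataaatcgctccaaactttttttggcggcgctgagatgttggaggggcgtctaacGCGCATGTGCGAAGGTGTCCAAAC
Prdm16: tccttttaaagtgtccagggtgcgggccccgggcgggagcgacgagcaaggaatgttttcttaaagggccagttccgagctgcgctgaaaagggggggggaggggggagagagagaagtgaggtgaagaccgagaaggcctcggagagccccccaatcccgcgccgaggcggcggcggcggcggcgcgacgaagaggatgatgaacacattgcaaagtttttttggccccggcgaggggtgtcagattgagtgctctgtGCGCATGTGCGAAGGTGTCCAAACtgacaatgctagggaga
The shared run is 24 bases long and spans bases 27 to 50 after the start in Mecom and 10 to 33 in Prdm16. It was the longest run in common among 50 pairs of windows of different members, the next being 14 bases of a GGC repeat. Of 32851 windows of all genes, 2 hold the 24 bases, those of Mecom and Prdm16. Mecom has a further annotated start inside the gene, whose window does not hold the run. The Prdm16 window lies wholly inside the gene, since it ends at 154637123 and the gene at 154637360.

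The brightest Mecom probe set, 1438325_at, had log2 intensities of 11.38 and 11.42 in Hi and of 12.53 and 12.19 in Lo. The Hi arrays differed by less than 0.05 from each other and lay 0.77 below the nearer Lo array. The difference was -0.96 ± 0.18 (SE), a 1.95-fold lower level in Hi, with a limma adjusted p of 0.129. Its unadjusted 95% interval ran from -1.46 to -0.46. The other Mecom probe sets, 1422295_at and 1423011_at, stayed between 2.83 and 3.57 on all 4 arrays, under the dim limit, and give no level for the transcripts they read. When all 3 were averaged the difference was -0.26 with an adjusted p of 0.366, a mean that takes in the dim probe sets.

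Prdm16 had 4 probe sets above the dim limit, and their differences ran from -1.87 to 0.09. The brightest, 1440745_at, had 9.71 and 9.49 in Hi and 10.58 and 10.91 in Lo, a difference of -1.14 ± 0.19 (SE) or 2.21-fold lower (limma adjusted p = 0.114). The probe set 1440870_at had 8.23 and 6.90 in Hi and 10.07 and 8.78 in Lo. Its groups did not overlap, yet the arrays of a group lay more than 1 apart, and the difference of -1.87 had an SE of 0.67 (limma adjusted p = 0.277). The probe set 1429309_at had 7.20 and 7.25 in Hi and 7.27 and 6.98 in Lo, so the groups overlapped and the difference was 0.09 ± 0.17. The probe set 1429308_at had 5.99 and 6.20 in Hi and 6.10 and 7.11 in Lo, with 1 Lo array inside the range of the Hi arrays. Set against the brightest probe set on the same array, 1429309_at differed from it by 1.24 ± 0.29 (SE) in its Hi minus Lo difference. The limma adjusted p of that contrast was 0.290 over 10543 such pairs of probe sets, of which 0.0% were called and 14.3% had an unadjusted p under 0.05. The transcript parts that the probe sets read were not analysed here.

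On each array the brightest Mecom probe set stood above the brightest Prdm16 one by 1.67 and 1.92 in Hi and by 1.95 and 1.28 in Lo, which overlap. Of 10 other PR domain genes measured, 3 had Hi lower and 2 had Hi higher without overlap, against 25.4% and 30.0% of all genes. The median was -0.11. Without the 3 that were dim on all arrays, 3 of 7 were lower and 0 higher, and the median was -0.27. Those with the smallest p were Prdm1, a repressor known from plasma cells, with 4.68 and 4.90 in Hi, the first under the dim limit, against 6.25 and 6.43 in Lo, Prdm2 at -0.67 ± 0.15 (SE) and the dim Prdm6 at 0.35 ± 0.17. Their limma adjusted p-values were 0.0901, 0.156 and 0.394. With the mean of its 3 probe sets Prdm2 had -0.28. Of 12 measured corepressor genes whose proteins bind Mecom, Prdm16 or Etv6, 3 had Hi lower and 3 had Hi higher without overlap. The shares of all genes were again 25.4% and 30.0%, and the median of the 12 was -0.02. The histone methyltransferase genes Ehmt1 and Ehmt2 pointed in opposite directions, at 0.72 ± 0.25 and -0.44 ± 0.16 (limma adjusted p = 0.272 and 0.287). Tbl1x had -0.50 ± 0.20 by its brightest probe set but -0.06 by the mean of its 3.

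Hlf, on chromosome 11 at 90336535 to 90390917, was read by 2 bright probe sets that gave nearly the same difference. Its promoter window, chr11:90390868-90391167 on the minus strand, is shown because it alone of the members' windows holds the exact letters CCGGAA. They are a form of the site that Erg, Fli1 and Etv6 bind. The capitals mark them, 125 bases before the start.
Hlf: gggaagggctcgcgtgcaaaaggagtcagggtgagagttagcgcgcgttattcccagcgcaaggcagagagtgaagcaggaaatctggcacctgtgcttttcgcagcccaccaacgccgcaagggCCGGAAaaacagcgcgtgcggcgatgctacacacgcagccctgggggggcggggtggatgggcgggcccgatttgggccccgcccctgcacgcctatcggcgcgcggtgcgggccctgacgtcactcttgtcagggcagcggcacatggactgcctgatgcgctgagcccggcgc
These letters, on either strand, were found in 14.9% of the windows of all genes. Shorter or altered forms of the site were not searched, so windows without a match are not shown to lack one. The table of promoters held 11 windows for 7 of the 10 members. The Myc-Max E-box, CACGTG, was in 0 of these 11 and in 7.15% of all windows, and the PAR bZIP site that Hlf itself binds, TTACGTAA, in 0 of 11 and in 0.119% of all. A match is a description of letters and not of binding.

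The Hlf probe set 1434735_at had 10.76 and 10.90 in Hi and 11.95 and 12.01 in Lo. The nearest Hi and Lo arrays were 1.04 apart, several times the distance between replicates. The difference was -1.15 ± 0.14 (SE), 2.21-fold lower in Hi, with a 95% interval from -1.54 to -0.75 and a limma adjusted p of 0.095. The probe set 1434736_at had 10.77 and 10.74 in Hi and 11.69 and 11.82 in Lo, a difference of -1.003 ± 0.14. Where the fit was made over genes and not over all probe sets, Hlf was called lower: the adjusted p was 0.0389 with the mean of a gene's probe sets and 0.0485 with the brightest one. Among all genes 1.52% and 1.18% were called lower in these fits. Of its relatives, Tef had 9.44 and 9.26 in Hi and 9.84 and 9.99 in Lo, a difference of -0.57 ± 0.15. Dbp had a difference of -0.32 ± 0.26 with overlapping groups. Nfil3, a repressor that competes for the same sites, had 7.34 and 7.56 in Hi and 8.33 and 8.65 in Lo, a difference of -1.04 ± 0.19. The limma adjusted p-values of Nfil3, Tef and Dbp were 0.125, 0.197 and 0.590. Set against Tef on the same array, Hlf was lower in Hi by a further 0.58, with the smallest possible exact permutation p of 0.333.

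Mllt3, on chromosome 4 at 87769925 to 88033407, had the member probe set with the most negative difference of the 26. The probe set 1429205_at had 8.68 and 9.01 in Hi and 10.86 and 10.82 in Lo, which left 1.81 between the nearest Hi and Lo arrays. The difference was -1.998 ± 0.17 (SE), 3.996-fold lower in Hi with a 95% interval from -2.48 to -1.51, and 357 of the 45037 probe sets of the array were as low or lower. Its limma adjusted p of 0.0839 was the smallest on the array and was shared by 225 probe sets. The probe set 1431890_a_at had 8.63 and 8.73 in Hi and 10.12 and 9.62 in Lo, a difference of -1.19 ± 0.22. The brightest one, 1453622_s_at, had 10.004 and 9.78 in Hi and 10.99 and 10.21 in Lo, and its difference of -0.71 ± 0.32 had a limma adjusted p of 0.356. Its Lo arrays lay far apart, so that the difference was -0.31 when Lo replicate 1 was left out and -1.10 when Lo replicate 2 was. All 3 probe sets thus had Hi below Lo without overlap, by amounts from 1.63-fold to 3.996-fold. Against the brightest on the same array, 1429205_at differed by a further -1.29 ± 0.37 (SE, limma adjusted p = 0.315 over the pairs).

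Mean values over the 3 Mllt3 probe sets gave a difference of -1.30, which was not called in the fit over all genes (adjusted p = 0.0525) and was called in the fit over the 12649 genes with a probe set above the dim limit (adjusted p = 0.0444, where 3.13% of genes were called lower). Transcripts of the partners of Mllt3 in the Dot1l and elongation complexes lay on both sides. Of 18 measured, 6 had Hi lower and 5 had Hi higher without overlap, near the shares of all genes (25.4% and 30.0%), and the median was -0.04. Kmt2a, the histone methyltransferase gene that is fused to MLLT3 in some leukaemias, had 10.63 and 10.55 in Hi and 11.92 and 11.44 in Lo, a difference of -1.09 ± 0.22 (limma adjusted p = 0.138). Mllt1, the paralogue of Mllt3, had 9.76 and 9.90 in Hi and 9.30 and 9.34 in Lo, a difference of 0.51 ± 0.14 (limma adjusted p = 0.197). Mllt6 had -0.52 ± 0.16 by its brightest probe set but 0.55 by the mean of its 3.

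**Figure D2:**
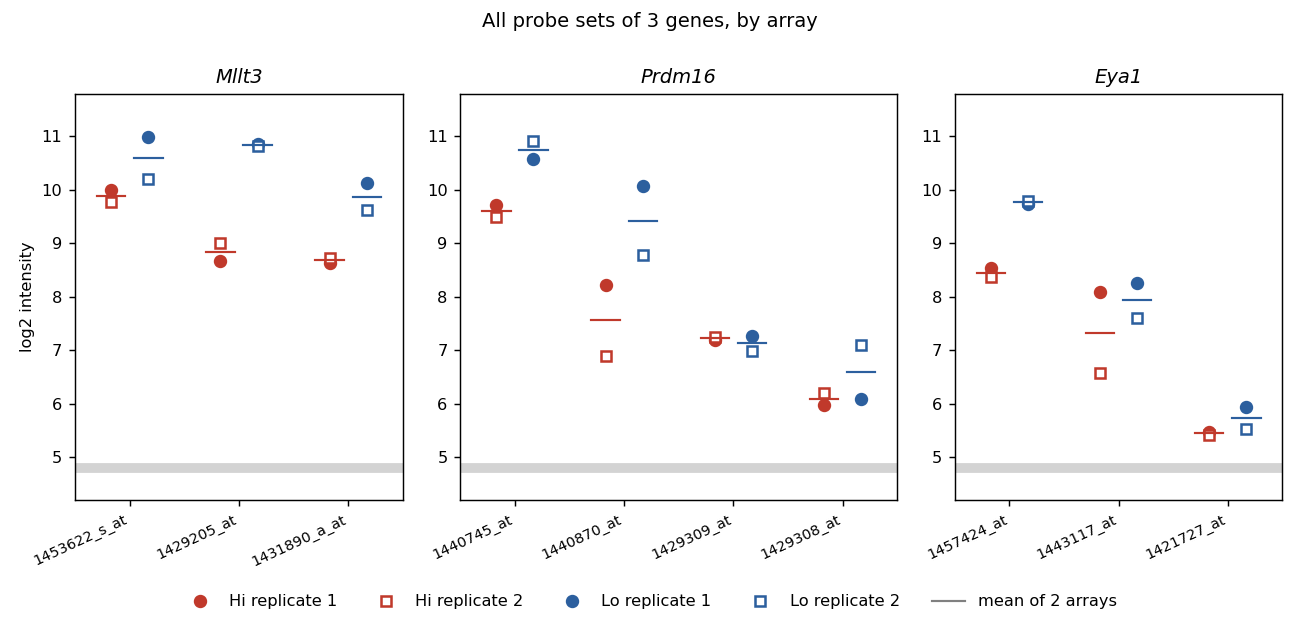
Log2 intensity of every probe set of Mllt3, Prdm16 and Eya1 on the 4 arrays; circles are replicate 1, squares replicate 2, lines the mean of 2 arrays and the grey band the range of the dim limit over the arrays. The Mllt3 probe sets all have Hi below Lo by unequal amounts, while the Prdm16 probe set 1429309_at has overlapping groups and the brightest one has Hi below Lo by 1.14.

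The 3 ETS factors are given in the order Erg, Fli1, Etv6. Erg, on chromosome 16 at 95359169 to 95586600, had 9.47 and 9.54 in Hi and 10.33 and 10.02 in Lo by the probe set 1440244_at, and 9.53 and 9.46 against 9.999 and 10.13 by 1425370_a_at. Neither overlapped, and the differences were -0.67 ± 0.17 (SE) and -0.57 ± 0.14, with limma adjusted p-values of 0.184 and 0.174. Fli1, on chromosome 9 at 32422204 to 32543432 and the closest relative of Erg here, had 10.99 and 10.91 in Hi and 11.08 and 10.25 in Lo by 1433512_at. Its groups overlapped, the difference was 0.28 ± 0.32 (limma adjusted p = 0.697), and its sign rested on the Lo arrays: 0.70 when Lo replicate 1 was left out, -0.13 when Lo replicate 2 was. The probe set 1422024_at had 8.93 and 8.46 in Hi and 8.20 and 7.996 in Lo, with Hi higher by 0.60 ± 0.22 (limma adjusted p = 0.286). Within an array, Erg minus Fli1 came to -1.52 and -1.37 for Hi, and to -0.75 and -0.23 for Lo. This contrast of -0.96 did not overlap between the groups and had an exact permutation p of 0.333, the smallest possible.

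Etv6, a repressor on chromosome 6 at 134035700 to 134270158, had the smallest difference of the 10 genes. Its brightest probe set, 1434880_at, had 12.96 and 12.99 in Hi and 13.16 and 13.15 in Lo. The groups did not overlap, but the difference was -0.19 ± 0.13 (SE, limma adjusted p = 0.523), with a 95% interval from -0.545 to 0.175. With the array medians set equal it came to -0.09. The probe set 1423401_at had 9.88 and 10.28 in Hi and 10.03 and 10.25 in Lo, which overlap. The intervals of both Etv6 probe sets reach to 1.46-fold and 1.55-fold lower in Hi, so a small difference could not be told from none with 2 arrays a group.

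Erg and Fli1 work in stem and progenitor cells with Gata2, Runx1, Tal1, Lyl1 and Lmo2. Of these 7 genes, which include the members Erg and Fli1, 5 had Hi below Lo without overlap and 0 had Hi above. Among all genes 25.4% and 30.0% did so, and the median difference of the 7 was -0.26. Gata2 had 12.21 and 12.11 in Hi and 12.68 and 12.59 in Lo, a difference of -0.47 ± 0.14 (SE, limma adjusted p = 0.215), and Tal1 had -0.48 ± 0.19. Lyl1 and Lmo2 had -0.26 ± 0.18 and -0.18 ± 0.13. Runx1, like Fli1, overlapped between the groups, at 0.39 ± 0.33, and its mean over 6 probe sets gave 0.01. The other ETS genes had a median of -0.05: of 21 measured, 8 had Hi lower and 4 had Hi higher without overlap, and 6 were dim on all arrays. Without those, 7 of 15 were lower and 3 higher, and the median was -0.12. Spic, known from macrophages of the spleen, had 6.51 and 5.77 in Hi and 7.90 and 8.01 in Lo, a difference of -1.81 ± 0.30, Elk4 had -0.72 ± 0.16 and Spib -0.62 ± 0.16 (limma adjusted p = 0.113, 0.154 and 0.179). With the mean of its 4 probe sets Elk4 had -0.09.

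Erg and Fli1 are also genes of blood vessels, so endothelial markers were read beside them. Of 10 measured, 6 had Hi lower and 2 had Hi higher without overlap, against 25.4% and 30.0% of all genes. Their summed intensity was 4277 to 4295 in Hi and 6528 to 7009.5 in Lo. The 2 with Hi higher were Plvap and the defining cadherin gene Cdh5. Plvap had 6.60 and 6.92 in Hi and 5.48 and 5.38 in Lo, a difference of 1.33 ± 0.17 (SE), while Cdh5 was under the dim limit on all 4 arrays. Of the 10 markers, those with the smallest p were Cldn5, with 6.43 and 6.60 in Lo and both Hi arrays under the dim limit, and Esam and Tie1 at -2.01 and -1.33. Stem cells are known to express Esam and Tie1 too. Of 10 measured megakaryocyte markers, 2 had Hi lower and 5 had Hi higher without overlap, and their sum was 6670.5 to 8301 in Hi and 6332 to 6549.7 in Lo, with Gp6 dim on all arrays. The smallest p-values there belonged to Gp1bb at 0.80, Gp9 at -0.64 and Vwf at -1.03. Stromal markers summed to 1269 to 1301 in Hi and 1139 to 1769 in Lo, with Col3a1, Pdgfra, Lepr and Kitl dim on all arrays. Their smallest p-values belonged to Col1a2 at -1.44, Alpl at 0.50 and the dim Col3a1. The part of any other cell type in the ETS gene values was not tested.

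Eya1 and Eya2 both had Hi below Lo. Eya1, on chromosome 1 at 14168953 to 14311035, had 8.53 and 8.38 in Hi and 9.74 and 9.79 in Lo by its brightest probe set, 1457424_at, with 1.21 between the nearest Hi and Lo arrays. The difference was -1.31 ± 0.14 (SE), 2.48-fold lower, with a 95% interval from -1.70 to -0.92 and a limma adjusted p of 0.0907. In the fit over the brightest probe set of each gene the adjusted p was 0.0447. The other probe sets showed less: 1443117_at had 8.08 and 6.57 in Hi and 8.27 and 7.60 in Lo, which overlap, and 1421727_at had 5.48 and 5.42 against 5.94 and 5.53, a difference of -0.29 ± 0.20. With the mean of all 3 the Eya1 difference was -0.73 and its adjusted p 0.200. Against the brightest on the same array, 1421727_at differed by 1.02 ± 0.22 (SE, limma adjusted p = 0.290 over the pairs).

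Eya2, on chromosome 2 at 165595028 to 165771727, was read by 1 probe set, 1424127_at, with 7.44 and 7.08 in Hi and 9.0003 and 8.08 in Lo. The groups did not overlap, though the Lo arrays lay further apart than the 0.65 that separated the groups. The difference was -1.29 ± 0.37 (SE), 2.44-fold lower in Hi, and the limma adjusted p was 0.212. Leaving out Lo replicate 1 gave -0.83, and leaving out Lo replicate 2 gave -1.74. Eya1 minus Eya2 came to 1.10 and 1.30 for Hi, and to 0.74 and 1.70 for Lo, which overlap. The paralogues Eya3 and Eya4 overlapped between the groups, at -0.46 ± 0.62 and -0.49 ± 0.66 by their brightest probe sets. With the mean of the 4 probe sets of each, Eya3 had 0.12 and Eya4 -0.09. The shares of all genes without overlap were 25.4% with Hi lower and 30.0% with Hi higher. Among the 9 measured genes of Eya paralogues and of their sine oculis homeobox and Dach partners, 0 had Hi lower and 2 had Hi higher without overlap. These were Six2 and Six6, both under the dim limit on all arrays, as was Six4. Without these 3 genes the median of the others was -0.27 by the brightest probe set of each. Of the partners above it, Six5 had -0.30 ± 0.23, Dach1 -0.24 ± 0.23, Dach2 0.20 ± 0.64 and Six3, close to the limit, 0.01 ± 0.15. All of them had overlapping groups (limma adjusted p = 0.551, 0.648, 0.907 and 0.980). With the mean of a gene's probe sets, Dach1 had -0.04, Dach2 0.53 and Six3 0.28, while Six5 was read by 1 probe set.

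Hmga2, on chromosome 10 at 120361268 to 120476469, was with Fli1 the member that did not stand lower in Hi. Its brightest probe set, 1422851_at, had 10.38 and 10.58 in Hi and 9.76 and 10.50 in Lo, which overlap, and the difference was 0.35 ± 0.30 (SE, limma adjusted p = 0.605). The probe set 1450780_s_at had 9.70 and 9.94 against 8.99 and 9.71, and 1450781_at had 9.94 and 9.91 against 9.39 and 9.06. In the last the groups did not overlap, and its difference of 0.70 ± 0.17 had the 1 unadjusted p under 0.05 with Hi higher among the members, 0.0162, and a limma adjusted p of 0.178. Leaving out Lo replicate 1 took the brightest probe set to -0.02 and leaving out Lo replicate 2 to 0.72. The fourth, 1446196_at, was dim on all arrays. Of the genes that act with Hmga2 in fetal cells, the let-7 antagonist Lin28b was dim on all arrays, at 2.05 to 2.21, and so was the RNA-binding protein gene Igf2bp1. Lin28a was under the dim limit on 3 of 4 arrays, and Igf2bp3 had 5.84 and 5.68 in Hi and 6.16 and 5.35 in Lo.

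**Figure D3:**
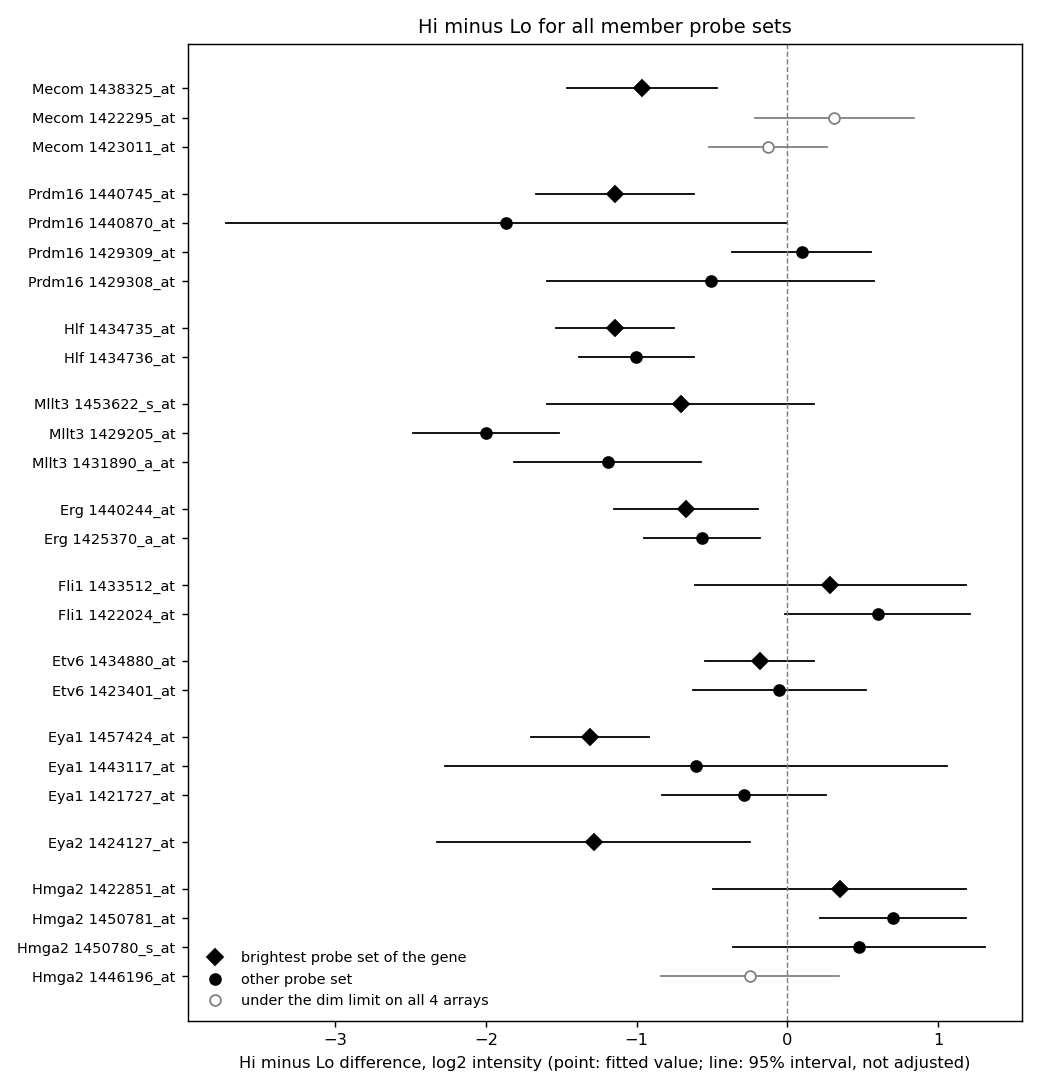
Fitted Hi minus Lo difference in log2 intensity for each of the 26 probe sets, with 95% intervals that are not adjusted for the number of probe sets; diamonds mark the brightest probe set of a gene and open grey points those under the dim limit on all 4 arrays. The Mllt3 probe set 1429205_at lies furthest to the left of those with a narrow interval, at -1.998, and the bright Hmga2 probe sets and both of Fli1 lie right of 0.

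Other transcription and chromatin factors linked to stem cells were read from a list of 30, of which 29 were measured. Hi lay below Lo without overlap for 20 of them and above for 2, where 25.4% and 30.0% of all genes did so, and the median difference was -0.48; the list was drawn up with earlier results known, and 5 of its genes also stand among the partners of Erg and Fli1. The smallest p-values belonged to the Kruppel-like factor gene Klf12, with 6.61 and 6.94 in Hi against 8.58 and 8.43 in Lo, and to the zinc finger genes Zfp467 and Zbtb20 at -1.75 ± 0.19 (SE) and -1.46 ± 0.19. Their limma adjusted p-values were 0.0900, 0.0921 and 0.0956. In the fit over the mean of a gene's probe sets they were 0.0317, 0.0483 and 0.0430, with all 3 lower in Hi.

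**Figure D4:**
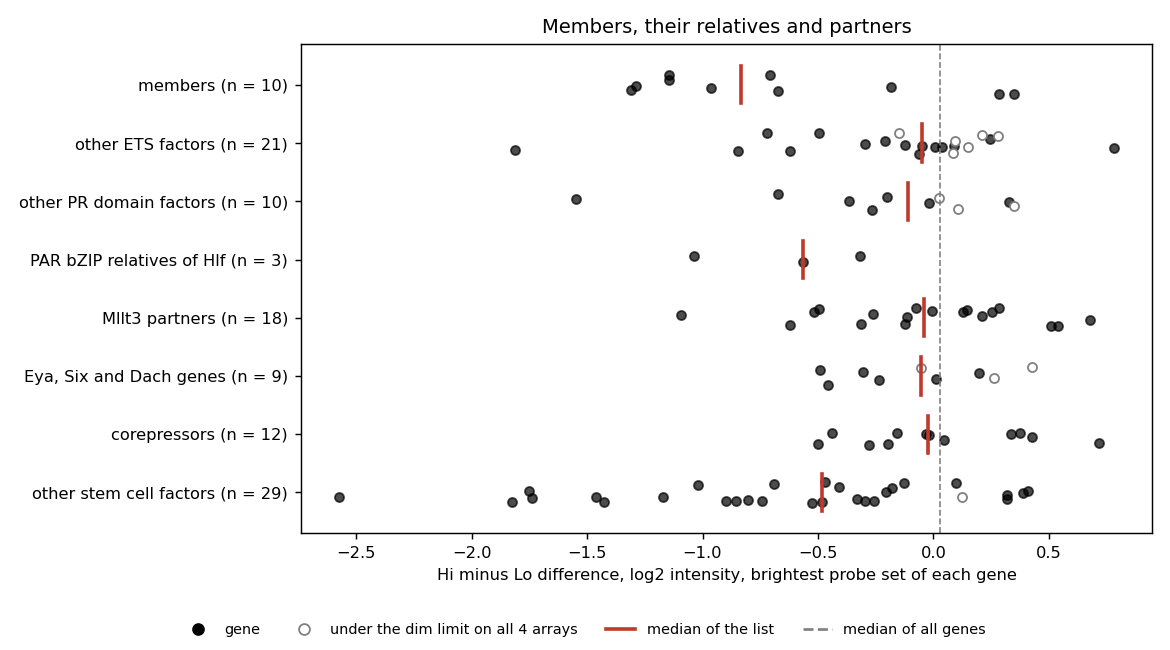
Hi minus Lo difference in log2 intensity of each gene by its brightest probe set, for the 10 members, their relatives and partners and other stem cell factors; points are genes, open points are genes under the dim limit on all 4 arrays, red bars are medians and the dashed line is the median of all genes. The vertical scatter within a row has no meaning. The members' median lies at -0.84 and that of the other stem cell factors at -0.48; the PAR bZIP relatives of Hlf lie at -0.57.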

How the data were processed

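RNA from sorted LSK cells was measured on 4 Affymetrix mouse arrays, 2 Hi and 2 Lo. Per the labels' protocols, 5 ng of total RNA was amplified and biotin-labelled with the NuGEN Ovation system. The authors deposited 1 linear intensity for each probe set, for which the submitters' processing notes name RMA; its version and settings are not given in the sources used here. Quantile steps such as those of RMA hide any shift that all transcripts share. The values ran from 2.96 to 22122 on a linear scale and were log2-transformed with no offset.

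Of 45101 probe sets, 64 controls were left out. Of the rest, 34945 had 1 gene symbol, 932 several and 9160 none in the platform annotation. Entrez identifiers matched 34741 to RefSeq genes of GRCm38.p6, and 59 symbols were updated by identifier or by synonym. Hi minus Lo was fitted over all probe sets with limma 3.58.1 in R 4.3.3 (lmFit and eBayes, no block, two-sided, Benjamini-Hochberg adjustment), with 2 residual and 1.976 prior degrees of freedom. The fit was tested on simulated data. The number of arrays limits the precision. Differences between probe sets of a gene were fitted the same way over 10543 pairs, a test added after the data were seen.

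The rule for named genes took all 10 members with every probe set, the partners of Erg and Fli1, Myc and the 3 genes with the smallest p of each other list; further genes were chosen after their values were seen. Members, lists and tests were chosen with earlier results of these data known. Lists were described by counts and medians. The alternatives were median shift, cyclic loess, an offset of 16, a dim filter, means or the brightest probe set of each gene, a replicate block, another prior, no moderation and leaving out each array. Promoter sequences are RefSeq's (GRCm38.p6); protein sequences were not used here.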

Additional observations from a re-analysis of the deposited data

How the results depend on the processing

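Over 14 alternatives for each of the 10 genes, 140 values in all, 133 kept their direction and their side of an adjusted p of 0.05, 5 passed it in the same direction and 2 changed direction. By limma over all probe sets, 0 probe sets passed higher and 0 lower, also after median shift, cyclic loess, the offset, the dim filter, the intensity trend, the replicate block and without any 1 array; the ordinary test without moderation called 1 lower. Fits over genes called more: 252 higher and 276 lower with every probe set of a gene averaged, 190 and 215 with the brightest, and 352 and 396 with the mean of probe sets above the dim limit, an alternative chosen after seeing the data. Members called lower in them were 1 (Hlf, -1.07), 2 (Hlf, -1.15, and Eya1, -1.31) and 2 (Hlf, -1.07, and Mllt3, -1.30). These fits test fewer features and estimate the spread anew. The dim filter also tested fewer, 27019 probe sets, and called 0. The reason for the added calls was not tested. Leaving out single arrays, Fli1 ran from -0.13 to 0.70, Hmga2 from -0.0239 to 0.72, Mllt3 from -1.10 to -0.31 and Eya2 from -1.74 to -0.83; the cause was not tested. The replicate numbers of the titles were not shown to pair the arrays (correlation of same-numbered deviations 0.07), and with a replicate block the 10 genes had limma adjusted p-values from 0.193 to 0.635. Values near the dim limit (4.74 to 4.87) carry little signal over background.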
